A study of Mus musculus with 4 samples.

Results

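The genes described here are receptors of the Wnt pathway and the factors that carry its signal into the nucleus, in mouse bone marrow cells with and without Smo, the gene of the hedgehog signal transducer Smoothened. The set was a list of 10 genes: the receptor genes Fzd4 and Fzd7, the co-receptor genes Lrp5 and Lrp6, the secreted modulator gene Sfrp1, Ctnnb1 and Axin2, and the TCF/LEF genes Tcf7, Lef1 and Tcf7l2. Every probe set that the annotation of the array assigned to 1 of these symbols was taken, which gave 24 probe sets of 9 genes, out of 45037 probe sets and 18193 named genes. Tcf7 was not analysed here, since no probe set carried its symbol in that annotation. The rule for the probe sets used symbols alone, but the genes were listed with earlier results of these data known.

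The study hybridised 4 arrays, 1 for each group: Smo-deficient LSK, WT LSK, Smo-deficient MP and WT MP. LSK cells carry c-Kit and Sca-1 but no lineage markers and hold the stem cells and multipotent progenitors, while MP cells, the myeloid progenitors, carry c-Kit without Sca-1. Smo-deficient mice had the genotype Smo flox/flox, Mx1Cre+ and WT mice the genotype Smo flox/flox, Mx1Cre-, so that the WT mice also carried the floxed alleles. Mice of both genotypes had received 3 injections of polyI:C at 20 ug/g, and marrow was taken 6 weeks later. PolyI:C induces interferon, which switches on the Mx1 promoter that drives Cre. That promoter also responds in cells outside the blood system. The labels give the strain as C57BL/6x130 for Smo-deficient LSK, C57BL/6x129 for WT LSK, C57BL/6x132 for Smo-deficient MP and C57BL/6x131 for WT MP, and give no age. The last number of these labels counts up in the order of the samples. LSK and MP of 1 genotype came from the same pool of mice, so the labels should not be read as 4 strains. Marrow of 4 mice of mixed sex was pooled per genotype before both populations were sorted, so each genotype is 1 pool and no group has a replicate.

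In the canonical Wnt pathway, a Wnt ligand binds a Frizzled receptor (Fzd) together with Lrp5 or Lrp6. This stops the destruction complex, in which Axin proteins act as scaffold, from marking beta-catenin (Ctnnb1) for degradation. Beta-catenin then enters the nucleus and acts with the DNA-binding proteins Tcf7, Lef1, Tcf7l1 and Tcf7l2, and Axin2 is itself a widely used target of the pathway. In blood formation Lef1 and Tcf7 are best known from early lymphoid cells. Because beta-catenin is controlled mainly at the level of the protein, the RNA of Ctnnb1 does not report the activity of the pathway.

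The checks of the labels came first. On probe set 1427049_s_at the log2 signal of Smo was 6.13 in Smo-deficient LSK against 10.81 in WT LSK, and 6.36 in Smo-deficient MP against 10.40 in WT MP. On 1427048_at it was 6.96 in Smo-deficient LSK against 10.02 in WT LSK, and 7.94 in Smo-deficient MP against 9.72 in WT MP, a smaller gap. The dim 1442215_at did not separate the genotypes, with 4.70 in Smo-deficient LSK against 4.54 in WT LSK and 4.39 in Smo-deficient MP against 4.68 in WT MP. The position of these probe sets in relation to the floxed exons was not looked up here. Kit, which marks both sorted populations, was read by 1452514_a_at and 1415900_a_at. On the first it was at 12.65, 12.51, 12.40 and 12.31 in Smo-deficient LSK, WT LSK, Smo-deficient MP and WT MP. On the second it was at 8.18, 8.06, 8.22 and 8.32 in the same order. Ly6a, the Sca-1 gene, was not named in the annotation used here. Of the 8 measured LSK markers 7 rose in LSK by limma and all 9 measured MP markers fell. Pearson correlations between the arrays, across probe sets, lay between 0.980 and 0.994.

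Promoter sequence was at hand for 6 of the 9 measured genes, in 11 windows that run from 250 bases before to 50 bases after an annotated start. The sequences are those of RefSeq on GRCm38.p6. They are shown for Fzd7, the gene with the clearest difference between the populations, for Axin2, the target used as a readout of the pathway, and for both annotated starts of Tcf7l2, whose probe sets fell into 2 groups. Capitals mark CTTTGTT or CTTTGAT or CTTTGTA or CTTTGAA, forms of the core that TCF/LEF proteins bind, on either strand. All windows lie on the plus strand, and each is printed 5′ to 3′.
Fzd7 (chr1:59481897-59482196): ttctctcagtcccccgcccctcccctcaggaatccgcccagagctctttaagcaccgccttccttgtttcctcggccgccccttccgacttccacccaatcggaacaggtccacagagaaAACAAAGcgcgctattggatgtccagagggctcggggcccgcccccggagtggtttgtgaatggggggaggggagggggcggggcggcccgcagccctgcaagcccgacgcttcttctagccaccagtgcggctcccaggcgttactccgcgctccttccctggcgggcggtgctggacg
Axin2 (chr11:108920099-108920398): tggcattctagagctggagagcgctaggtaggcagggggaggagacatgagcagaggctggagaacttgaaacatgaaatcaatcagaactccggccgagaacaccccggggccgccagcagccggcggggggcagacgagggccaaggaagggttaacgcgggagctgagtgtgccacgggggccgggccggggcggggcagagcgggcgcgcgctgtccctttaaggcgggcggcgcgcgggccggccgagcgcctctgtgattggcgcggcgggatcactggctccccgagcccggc
Tcf7l2, upstream start (chr19:55741560-55741859): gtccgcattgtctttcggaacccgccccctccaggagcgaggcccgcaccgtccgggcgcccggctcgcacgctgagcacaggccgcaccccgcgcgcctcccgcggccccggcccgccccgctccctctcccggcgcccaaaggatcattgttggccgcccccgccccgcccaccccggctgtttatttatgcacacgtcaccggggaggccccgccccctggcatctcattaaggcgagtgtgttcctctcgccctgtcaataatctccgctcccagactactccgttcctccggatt
Tcf7l2, internal start (chr19:55895071-55895370): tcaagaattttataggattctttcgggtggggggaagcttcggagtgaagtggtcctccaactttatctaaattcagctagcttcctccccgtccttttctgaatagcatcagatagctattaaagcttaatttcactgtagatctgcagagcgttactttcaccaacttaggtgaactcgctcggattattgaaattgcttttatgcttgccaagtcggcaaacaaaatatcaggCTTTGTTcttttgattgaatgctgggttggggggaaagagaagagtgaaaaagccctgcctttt
The Fzd7 window held 1 match on the minus strand, which begins 130 bases before the start, and the internal Tcf7l2 window held 1 on the plus strand, 14 bases before it. Axin2 and the upstream Tcf7l2 window held none of these letters. Among all 11 windows 3 had a match, the third being at an internal start of Lef1, while 16.9% of the 32851 promoter windows of this length had one. The windows differed in base composition: 66.7% of bases were G or C for Fzd7, 70.0% for Axin2 and 70.0% at the upstream start of Tcf7l2, against 42.0% at its internal start.

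The MP arrays were made as a control by which genes enriched in LSK could be found. For this test a probe set had to have a mean log2 intensity over the 4 arrays above the median of all probe sets, 7.23, and those below it are called dim. Of the 24 member probe sets 9 were above this level, from 5 genes (Ctnnb1, Fzd4, Fzd7, Lrp6 and Sfrp1), and the other 15 were dim. Axin2, Lef1, Lrp5 and Tcf7l2 had dim probe sets only, and a change in these genes may be too small to see at such signal. The test was limma with the pool as a block, with p adjusted by Benjamini-Hochberg over all 22518 probe sets. It rests on 2 pairs of arrays, 1 pair of each genotype, which leave 1 residual degree of freedom. By borrowing variance from all tested probe sets, limma works with 6.60 degrees of freedom in total. Its SEs and intervals thus do not rest on the spread of 1 probe set between the pools alone. Of the 9 member probe sets tested 1 rose in LSK (Ctnnb1) and 1 fell (Fzd7). Among all tested probe sets 22.3% passed, with 15.1% up and 7.19% down, so these counts are close to the background. Within the pools, 0 of the 9 differed by 2-fold in the Smo-deficient pool and 1 of 9, Fzd7, in the WT pool, where 4.52% and 4.17% of all tested probe sets did. Of the 15 dim member probe sets 2, both of Tcf7l2, differed by 2-fold in the Smo-deficient pool and 0 in the WT pool, against 1.42% and 0.866% of all dim probe sets.

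**Figure D1:**
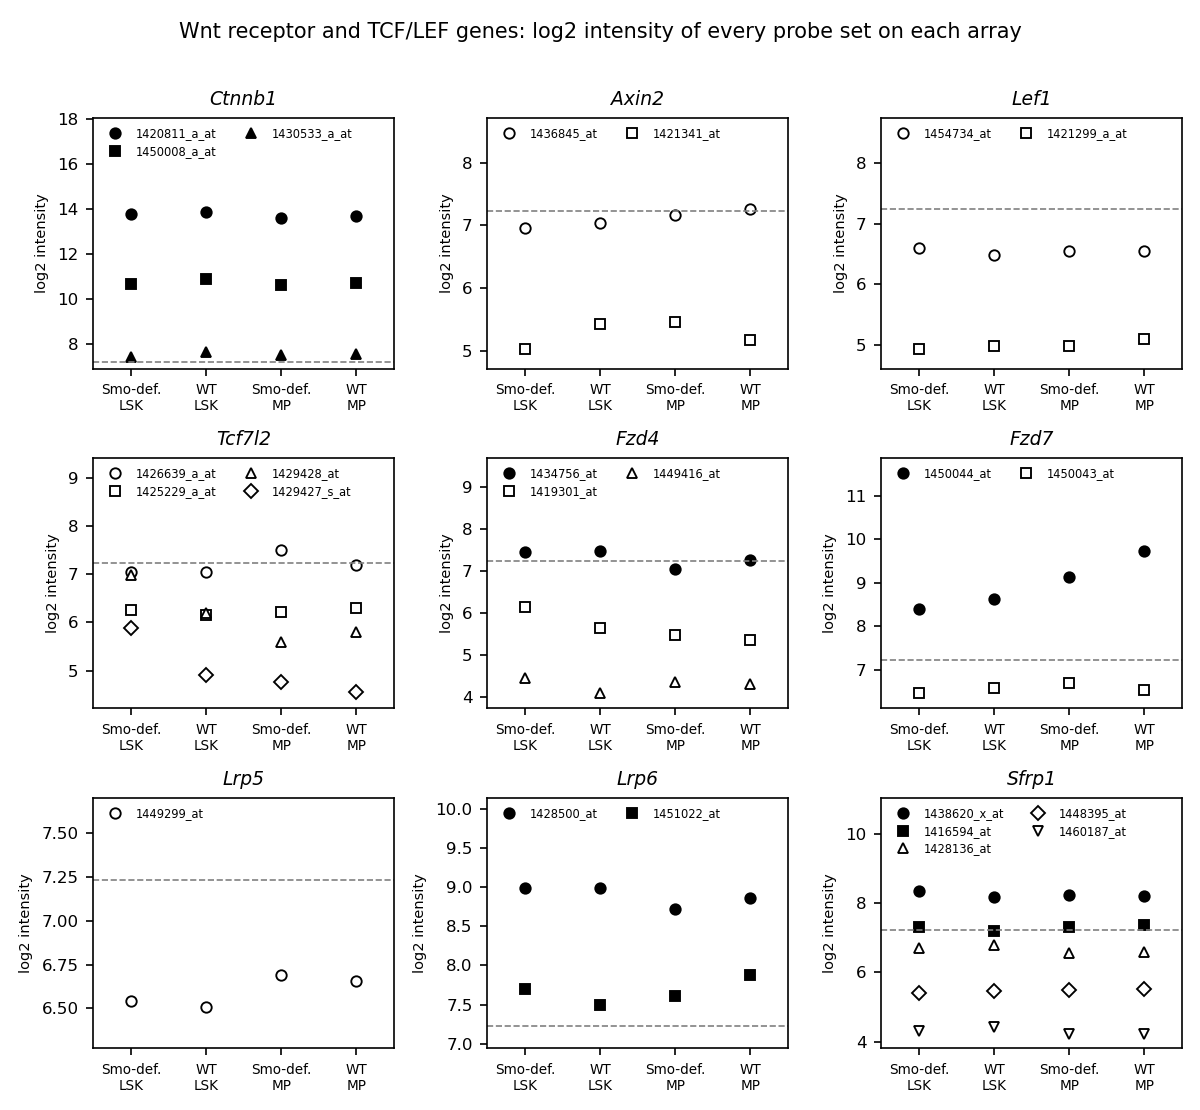
Log2 intensity (y axis) of each probe set of the 9 measured genes on the 4 arrays, 1 array per group, with Smo-deficient LSK and WT LSK left of Smo-deficient MP and WT MP. Symbols stand for probe sets, filled where the mean over the arrays is above the filter level of 7.23 (dashed line), and scales differ between panels. Fzd7 on 1450044_at runs from 8.41 in Smo-deficient LSK to 9.74 in WT MP, and most other probe sets are nearly level.

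Fzd7, a Frizzled receptor known from stem and progenitor cells of several tissues, fell in LSK. On 1450044_at its log2 intensity was 8.41 in Smo-deficient LSK and 8.62 in WT LSK, against 9.13 in Smo-deficient MP and 9.74 in WT MP. Both LSK arrays lay below both MP arrays. LSK minus MP averaged -0.92 ± 0.13 (limma's moderated SE), with a 95% interval from -1.24 to -0.60 and a limma adjusted p of 0.00503. It was -0.72 in the Smo-deficient pool and -1.12 in the WT pool. A difference of that size or larger, in either direction, was found in 9.50% of tested probe sets in the Smo-deficient pool and 3.27% in the WT pool. Without the pool as a block the adjusted p was 0.0794, and the call was lost. The other Fzd7 probe set, 1450043_at, was dim, with 6.48 in Smo-deficient LSK and 6.59 in WT LSK, against 6.70 in Smo-deficient MP and 6.55 in WT MP. Its values did not separate the populations, although the annotation credits both probe sets to the same source transcript.

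Fzd7 was the member with the widest genotype difference among those above the filter level. On 1450044_at Smo-deficient minus WT was -0.61 in MP and -0.21 in LSK, and 4.26% of tested probe sets differed by as much or more in MP and 33.3% in LSK. With 1 array per group neither difference could be tested. Erythroid genes of the MP marker list had differences of the same sign in MP: Gata1, an erythroid transcription factor, -0.54, Klf1, another such factor, -0.48, the erythropoietin receptor gene Epor -0.72 and the carbonic anhydrase gene Car1 -0.31. The other 5 genes of that list, of granulocytes and monocytes, had the opposite sign, with Elane, the neutrophil elastase gene, at 0.77 and Ms4a3 at 0.61. The separate list of mature erythroid markers had a median of 0.07 in MP, with 3 of its 4 genes above the level positive and sums of 11069 in Smo-deficient MP against 10330 in WT MP. The part of these populations in the Fzd7 value was not tested. In bulk samples, fewer cells of a type and less RNA per cell cannot be told apart.

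The genes whose 4 values ran most like those of Fzd7, by Euclidean distance between log2 values centred on their mean, were Necap2, Abca3 and Tfr2. Their distances were 0.08, 0.10 and 0.11, over 4 arrays and among 11904 genes. Tfr2, a transferrin receptor gene expressed in the liver and in erythroid precursors, was at 11.85 on an _x_at probe set in Smo-deficient LSK and 12.10 in WT LSK, against 12.60 in Smo-deficient MP and 13.08 in WT MP. Necap2 was at 10.44 in Smo-deficient LSK and 10.71 in WT LSK, against 11.26 in Smo-deficient MP and 11.86 in WT MP. Abca3 was at 10.47 in Smo-deficient LSK and 10.65 in WT LSK, against 11.10 in Smo-deficient MP and 11.85 in WT MP. All 3 shared the order of Fzd7 over the arrays, which follows from how they were picked and is not a separate result.

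Fzd4, a Frizzled receptor that also binds norrin, did not pass on its tested probe set. On 1434756_at, just above the filter level, it was at 7.44 in Smo-deficient LSK and 7.48 in WT LSK, against 7.04 in Smo-deficient MP and 7.25 in WT MP. The mean difference was 0.32 ± 0.11 (limma's moderated SE), with a limma adjusted p of 0.0941 and an interval from 0.05 to 0.59 before adjustment. On the dim 1419301_at the values were 6.14 in Smo-deficient LSK and 5.65 in WT LSK, against 5.48 in Smo-deficient MP and 5.36 in WT MP. Both LSK values were again the higher ones, and when all 45037 probe sets were tested this one passed, at 0.48 ± 0.12 and a limma adjusted p of 0.0421. In that fit without a filter 12.2% of probe sets passed. The third, 1449416_at, stayed between 4.10 and 4.46 on all arrays. Smo-deficient minus WT in LSK was -0.04, 0.48 and 0.35 on these 3 probe sets, in the order given, so they did not share a sign.

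The co-receptor genes, whose products bind Wnt beside a Frizzled, did not pass. Lrp6 on 1428500_at was at 8.98 in Smo-deficient LSK and 8.99 in WT LSK, against 8.72 in Smo-deficient MP and 8.86 in WT MP. Between LSK and MP the difference was 0.20 (limma adjusted p = 0.260), with an interval from -0.07 to 0.46. On its other probe set, 1451022_at, it was -0.15 (adjusted p = 0.510), with -0.49 to 0.20, so the probe sets did not share a sign. Lrp5 was read by 1 dim probe set, 1449299_at, at 6.54 in Smo-deficient LSK and 6.51 in WT LSK, against 6.69 in Smo-deficient MP and 6.65 in WT MP. Its genotype difference was 0.04 in LSK and 0.04 in MP.

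Sfrp1, a secreted Frizzled-related protein that binds Wnt ligands, did not pass on either tested probe set. On 1438620_x_at it was at 8.34 in Smo-deficient LSK and 8.19 in WT LSK, against 8.22 in Smo-deficient MP and 8.19 in WT MP. The difference between LSK and MP was 0.05 ± 0.11 (limma adjusted p = 0.763). The suffix _x_at marks a probe set whose probes may also match other transcripts. On 1416594_at it was -0.08 ± 0.11 (adjusted p = 0.637). Over all 5 probe sets, 3 of them dim, Smo-deficient minus WT ran from -0.12 to 0.15 in LSK and from -0.04 to 0.03 in MP.

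Ctnnb1, the gene of beta-catenin, was nearly level on all of its probe sets. On 1420811_a_at its log2 intensity was 13.80 in Smo-deficient LSK and 13.86 in WT LSK, against 13.63 in Smo-deficient MP and 13.68 in WT MP. Both LSK arrays were above both MP arrays. LSK minus MP was 0.17 in the Smo-deficient pool and 0.18 in the WT pool, a mean of 0.18 ± 0.05 (SE), with a limma adjusted p of 0.0479. The call was lost without the block (adjusted p = 0.216), without the trend in the variance (0.255) and with a looser filter or none (0.0659 and 0.0945). The 1450008_a_at and 1430533_a_at probe sets gave 0.10 (adjusted p = 0.561) and 0.02 (0.913). Smo-deficient minus WT on the 3 probe sets ran from -0.23 to -0.06 in LSK and from -0.09 to -0.04 in MP. After quantile normalization the MP differences on 1420811_a_at and 1450008_a_at changed sign, to 0.034 and 0.0059.

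**Figure D2:**
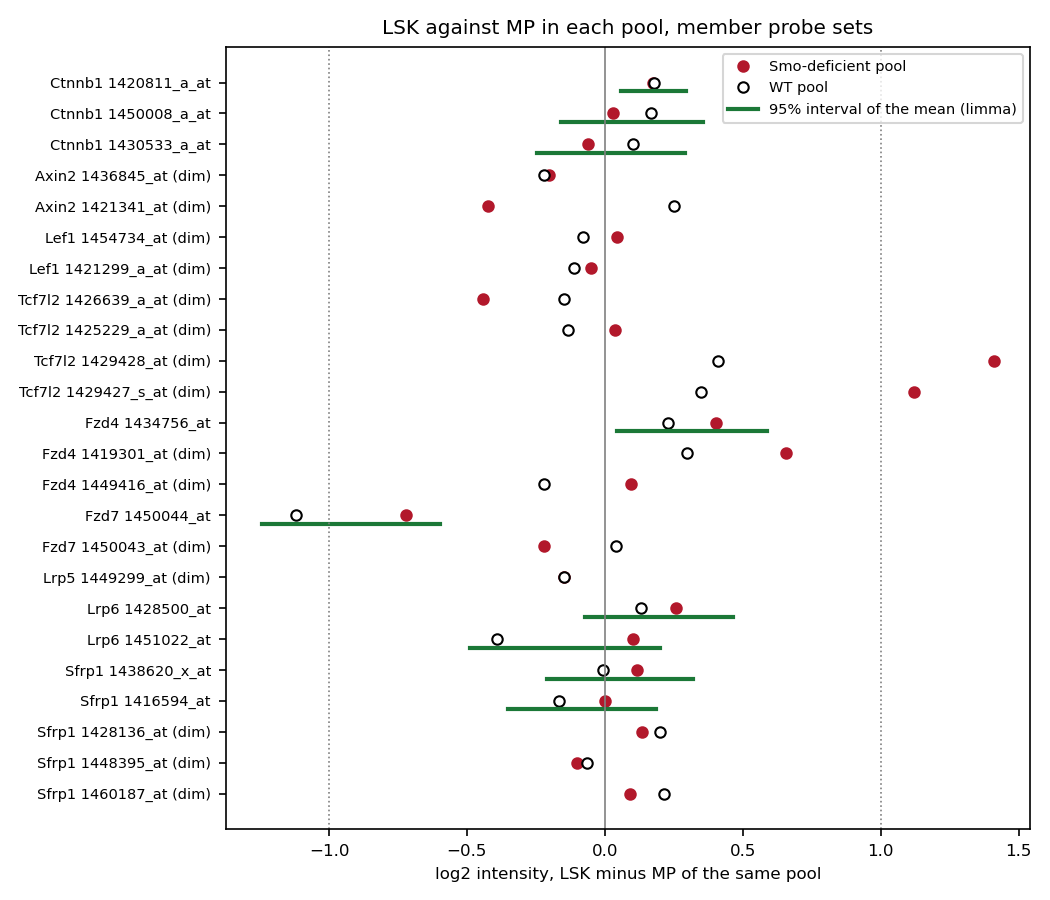
Difference in log2 intensity between LSK and MP of the same pool (x axis) for each of the 24 member probe sets, with the Smo-deficient pool filled and the WT pool open. Green bars are the 95% intervals of limma's mean difference, drawn below the points for the 9 tested probe sets, and dotted lines mark 2-fold. Fzd7 on 1450044_at is at -0.72 and -1.12, and a pair of dim Tcf7l2 probe sets lies at 1.41 and 1.12 in the Smo-deficient pool.

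Axin2, both a scaffold of the destruction complex and a target of the pathway, was dim. Its brighter probe set, 1436845_at, was just below the filter level, with 6.97 in Smo-deficient LSK and 7.04 in WT LSK, against 7.17 in Smo-deficient MP and 7.26 in WT MP. Both LSK values were the lower ones, and with no filter LSK minus MP was -0.21 ± 0.11 (limma adjusted p = 0.283). Smo-deficient minus WT was -0.07 in LSK and -0.09 in MP. On 1421341_at it was -0.40 in LSK and 0.28 in MP, at intensities near the bottom of the scale, from 5.03 to 5.46.

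Lef1, a partner of beta-catenin on DNA, was dim and spanned 0.12 and 0.16 on the log2 scale on its probe sets. On 1454734_at it was at 6.60 in Smo-deficient LSK and 6.48 in WT LSK, against 6.56 in Smo-deficient MP and 6.56 in WT MP. On 1421299_a_at the values lay between 4.94 and 5.10. Early B lineage genes mark a setting in which Lef1 is known to be expressed. In LSK, Smo-deficient minus WT was positive for all 8 of their list above the filter level, with a median of 0.58. It was positive for 10520 of all 22518 probe sets above the level. Lef1 differed by 0.12 and -0.05 on its dim probe sets. The part of B lineage cells in the Lef1 values was not tested. Among the T cell markers above the level 3 of 7 had a positive difference, with a median of -0.03.

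The 4 probe sets of Tcf7l2, a TCF factor best known from the gut epithelium, split into pairs. On 1429428_at it was at 7.0 in Smo-deficient LSK and 6.21 in WT LSK, against 5.59 in Smo-deficient MP and 5.80 in WT MP. On 1429427_s_at it was at 5.88 in Smo-deficient LSK and 4.91 in WT LSK, against 4.76 in Smo-deficient MP and 4.56 in WT MP. On both, Smo-deficient LSK was the highest array, WT LSK came next and both MP arrays were lowest. The annotation credits this pair to 1 source transcript, so they are not independent readings, and the suffix _s_at marks probes shared between transcripts.

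The other pair behaved differently. On 1426639_a_at Tcf7l2 was at 7.06 in Smo-deficient LSK and 7.05 in WT LSK, against 7.50 in Smo-deficient MP and 7.20 in WT MP, so that both MP arrays were the higher ones. On 1425229_a_at the values stayed between 6.16 and 6.30. With no filter, LSK minus MP was 0.91 ± 0.21 (limma adjusted p = 0.0316) on 1429428_at and 0.73 ± 0.17 (0.0316) on 1429427_s_at, but -0.30 ± 0.12 (0.185) on 1426639_a_at and -0.05 (0.818) on 1425229_a_at. No statement on the gene as a whole follows from probe sets of opposite sign. Which of the starts printed above each probe set could read was not looked up here.

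Between genotypes 0 of the 24 probe sets differed by 2-fold or more in LSK, and in MP 0 of 24 did. Over all probe sets the share past 2-fold was 0.822% of the probe sets above the filter level and 0.426% of the dim ones in LSK, and 0.639% and 0.111% in MP, so a count of 0 is near the background. After quantile normalization the dim Tcf7l2 probe set 1429427_s_at reached 2-fold in LSK, at 1.0 on the log2 scale. Over the 9 probe sets above the level, Smo-deficient minus WT ran from -0.23 to 0.21 in LSK with a median of -0.04, and from -0.61 to 0.03 in MP with a median of -0.09. Over all 22518 such probe sets the medians were -0.02 in LSK and -0.05 in MP.

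The largest genotype differences of the set were those of the Tcf7l2 pair in LSK. They were 0.97 on 1429427_s_at and 0.79 on 1429428_at, and among dim probe sets 0.462% and 0.924% differed by as much or more. In MP the same probe sets differed by 0.20 and -0.21. With 32 added to each intensity before the log, the LSK differences were 0.55 and 0.59. In the same comparison Smo-deficient LSK had higher neutrophil markers, all 9 measured, with a median difference of 0.79 and summed intensities of 132847 in Smo-deficient LSK against 82391 in WT LSK, and higher B lineage markers, summing to 3953 in Smo-deficient LSK against 2513 in WT LSK over 10 genes. Mature erythroid markers summed to 13778 in Smo-deficient LSK against 9152 in WT LSK over 5 genes, and all 4 above the filter level had a positive difference, with a median of 0.47. The T cell markers summed to 4709 in Smo-deficient LSK against 4814 in WT LSK over 13 genes, and the stroma and endothelium markers to 4656 in Smo-deficient LSK against 4408 in WT LSK over 12. Of the 5 stroma and endothelium markers above the level 1 had a positive difference, and their median was -0.18. The part of other cells in the Tcf7l2 values was not tested.

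**Figure D3:**
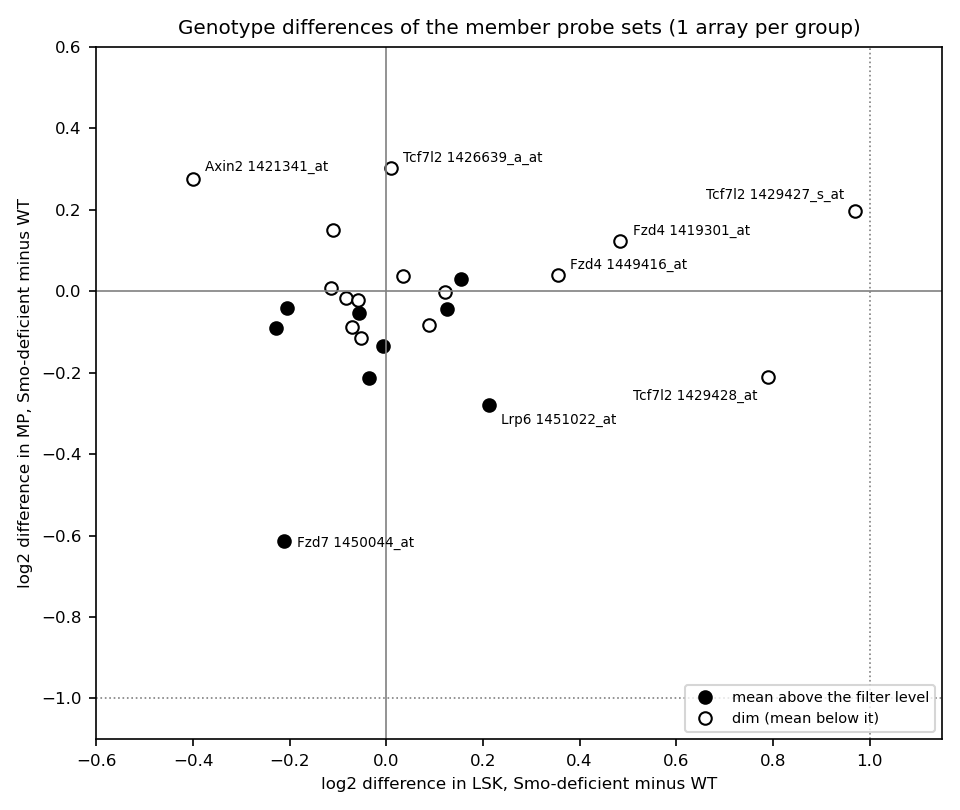
Smo-deficient minus WT log2 difference in LSK (x axis) against that in MP (y axis) for the 24 member probe sets, filled where the mean is above the filter level and open where it is dim, with 1 array per group and dotted lines at 2-fold. Most points lie near 0. Fzd7 on 1450044_at is lowest in MP at -0.61, and the pair of Tcf7l2 probe sets lies farthest right at 0.97 and 0.79 in LSK.

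Other genes of the pathway were read for context, each on its brightest probe set. In the receptor list 4 of 11 tested genes rose in LSK and 1 fell, where 16.4% of all tested genes rose and 7.54% fell. Fzd6, which is often described as opposing canonical signalling, rose by 1.26 ± 0.12 (SE; limma adjusted p = 0.000938). Its log2 intensity was 10.38 in Smo-deficient LSK and 10.40 in WT LSK, against 9.04 in Smo-deficient MP and 9.23 in WT MP. Fzd3 and Fzd8, further Frizzled receptors, rose by 0.65 and 0.64, although other Fzd3 probe sets above the level gave 0.08 and -0.07, and Znrf3, a ligase that removes Frizzled receptors from the surface, rose by 0.54. Within 1 receptor family Fzd6 ran opposite to Fzd7 between the same arrays, on 1 probe set of each gene. With no filter, the dim Fzd6 probe sets 1448662_at and 1458904_at gave -0.08 and -0.04, and the dim Fzd7 probe set 1450043_at gave -0.09.

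Ryk, an atypical Wnt receptor, was the only listed Wnt receptor at least 2-fold different between genotypes. On 1451789_a_at it was at 8.66 in Smo-deficient LSK and 9.23 in WT LSK, against 8.94 in Smo-deficient MP and 10.21 in WT MP. Smo-deficient minus WT was -0.57 in LSK and -1.27 in MP, where 0.182% of tested probe sets differed by as much. Its other probe sets had the same sign, with -0.88 and -0.60 in LSK and -1.88 and -0.89 in MP. Its LSK minus MP difference was -0.63 (limma adjusted p = 0.0466), and -0.62 (0.0992) on the second tested probe set. The call on the first was lost with no filter (0.0569), the looser filter (0.0604), no trend (0.068) and no block (0.422). On the first, LSK minus MP was -0.28 in the Smo-deficient pool and -0.98 in the WT pool. On the second it was -0.11 in the Smo-deficient pool and -1.12 in the WT pool. The dim 1447400_at gave -0.59 with no filter (limma adjusted p = 0.0192).

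Of all tested genes 16.4% rose and 7.54% fell, the background for each list that follows. Upstream of the receptors, 1 of 7 tested genes rose and 0 fell. It was Wls, which carries Wnt ligands to the cell surface, at 10.75 in Smo-deficient LSK and 11.17 in WT LSK, against 10.02 in Smo-deficient MP and 9.54 in WT MP. The mean difference was 1.18 ± 0.20 (SE; limma adjusted p = 0.00924), and 1.03 and 1.14 on its other tested probe sets. Of the extracellular inhibitors 0 of 4 passed limma, with 1 higher and 1 lower at an unadjusted p under 0.05, and 13 of the 14 listed were measured. Of the destruction complex and Dvl list 3 of 16 rose and 1 fell, the casein kinase gene Csnk1e (0.77), the scaffold gene Apc (0.49) and the ubiquitin ligase subunit gene Fbxw11 (0.44) up and Amer1 (-0.43), which tethers the complex at the membrane, down. Of the nuclear partners 3 of 17 rose and 0 fell, the corepressor genes Tle2 (0.61), Ctbp2 (0.56) and Tle4 (0.51). The calls of Apc (limma adjusted p = 0.0439), Amer1 (0.0469) and Znrf3 (0.0467) were lost with no filter, at 0.0502 for Apc, 0.0700 for Amer1 and 0.0645 for Znrf3. Without the block these calls and those of Fzd8 (0.0727), Csnk1e (0.0737), Fbxw11 (0.0594), Ctbp2 (0.107) and Tle4 (0.173) were lost.

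Genes often read as targets of the pathway were counted in the same way. In LSK against MP 4 of 10 tested rose and 0 fell, where 16.4% of all tested genes rose and 7.54% fell. The 4 were the AP-1 gene Jun (0.66), Znrf3 as above, the receptor decoy gene Bambi (0.41) and the cyclin gene Ccnd1 (0.40). With no filter the calls of Bambi (limma adjusted p = 0.0667) and Ccnd1 (0.0719) were also lost. Rnf43, on this list and on the receptor list, was dim and so not among the 10 tested. It was at 5.71 in Smo-deficient LSK and 5.71 in WT LSK, against 6.35 in Smo-deficient MP and 6.49 in WT MP. With no filter its LSK minus MP was -0.71 (limma adjusted p = 0.00552), in a fit where 12.2% of all probe sets passed. Between genotypes 1 of 10 was 2-fold in LSK and 0 of 10 in MP. Among all tested probe sets 0.822% were 2-fold in LSK and 0.639% in MP. The 2-fold gene was Id2, an inhibitor of E proteins. On 1435176_a_at it was at 9.93 in Smo-deficient LSK against 8.50 in WT LSK, and 9.28 in Smo-deficient MP against 8.79 in WT MP. Its dim probe sets 1422537_a_at and 1453596_at differed by 0.19 and 0.31 in LSK, and by 0.35 and 0.05 in MP. The median genotype difference of the list was 0.17 in LSK and 0.03 in MP, while over all tested genes it was -0.02 and -0.05. All of these comparisons share the same 4 arrays, and none has a replicate of its own group.

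**Figure D4:**
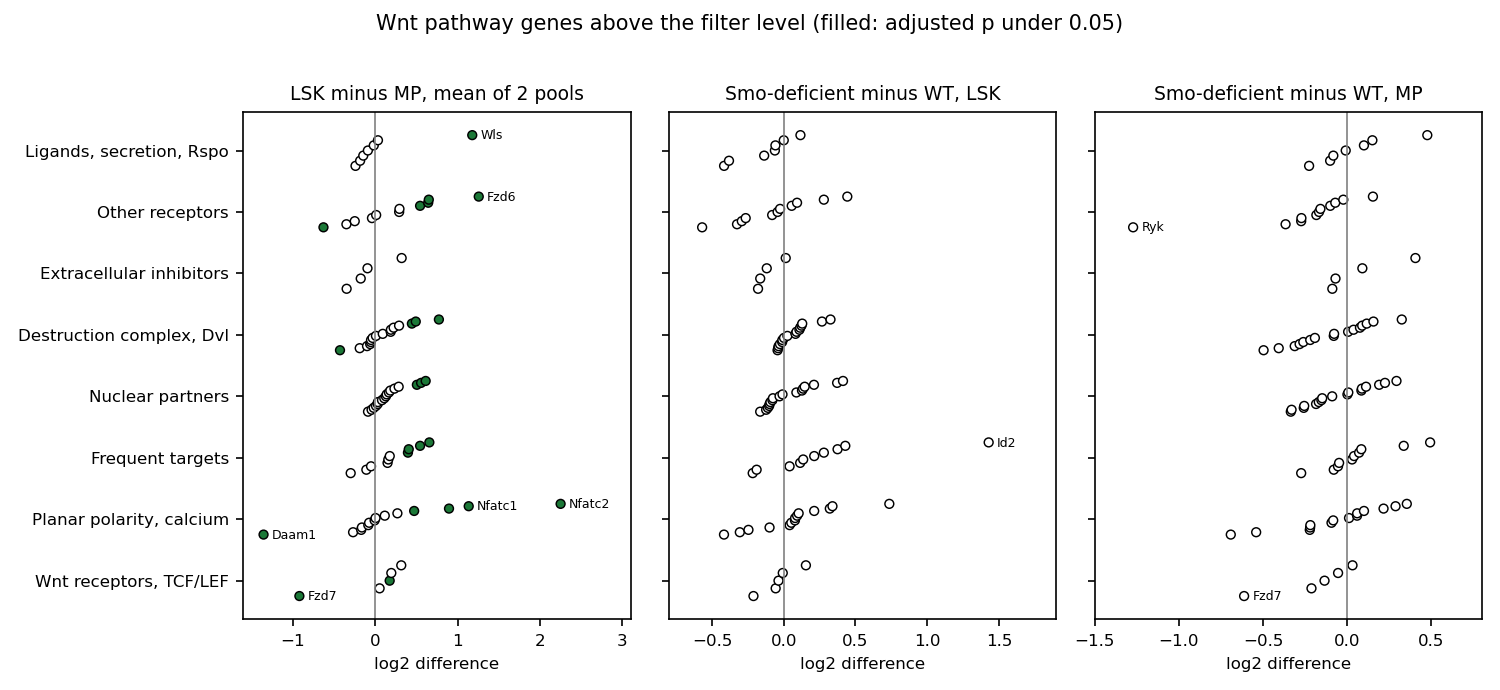
Log2 differences (x axis) of the Wnt pathway genes above the filter level, by list (rows), for LSK minus MP as the mean of 2 pools, Smo-deficient minus WT in LSK and Smo-deficient minus WT in MP, with 1 point per gene. Filled points passed limma at an adjusted p under 0.05, which was computed for LSK against MP only. Fzd6 (1.26) and Fzd7 (-0.92) lie on opposite sides in the left panel, and Ryk (-1.27) and Fzd7 (-0.61) are far left in the right panel.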

How the data were processed

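RNA of 4 sorted samples was measured on Affymetrix mouse arrays, from 20 ng of total RNA amplified in a pair of cycles per the labels' protocols. The authors deposited 1 intensity value for each of 45101 probe sets and array, made with RMA per the submitters' processing notes, without a version. RMA normally returns log2 values. The deposited intensity column spans 12.3 to 44290.5, a linear scale, and log2 was taken of it with no pseudocount. RMA includes a quantile step, which can hide a shift common to most transcripts, although a further quantile normalization still moved the median difference of all tested probe sets by up to 0.09 on the log2 scale. Array medians lay between 149.1 and 150.3. Precision is limited by having 4 arrays.

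The 64 control probe sets were set aside. In the platform annotation 34945 probe sets had 1 gene, 932 several and 9160 none. A gene was represented by its single-gene probe set of highest mean. Probe sets with a mean above the 50th percentile (22518, of 11904 genes) were tested for LSK against MP with limma 3.58.1 in R 4.3.3: lmFit, eBayes with a trend, two-sided, Benjamini-Hochberg, the pool as a block. The pools pair the arrays, since both populations were sorted from the same mice per the series' design text. Its residual compares pools of unlike genotype and says nothing of variation among mice of the same genotype. Genotype differences had 1 array per group and no test, and 2-fold counted as called. The procedure was run on simulated data with independent noise, set by intensity level, and no difference between pools. Such data cannot show how it performs on pools of unlike genotype.

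All member probe sets were described. From 7 Wnt pathway lists, genes were named that passed with at least 1.5-fold, or that differed 2-fold between genotypes, at most 5 per list. Znrf3, Apc, Fbxw11, Amer1, Ctbp2, Tle4, Bambi, Ccnd1 and Ppp3ca were added after their values were seen. For Fzd7 the 3 nearest profiles were named. The members and lists were chosen with earlier results of these data known. Alternatives were another scaling, filter, offset, fold, variance prior, block and probe set per gene, and each pool alone.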

Additional observations from a re-analysis of the deposited data

Results flagged for a closer look

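Results are given here where Smo-deficient minus WT had opposite signs in LSK and MP and the gap between them was at least 1.5-fold, among the member probe sets, the tested probe sets of the named Wnt pathway genes and the brightest tested probe set of each other gene on the Wnt lists. With 1 array per group the difference between the populations was not tested. On the dim Tcf7l2 probe set 1429428_at, the genotype difference was 0.79 in LSK and -0.21 in MP, a gap of 1.0 on the log2 scale. On the dim Axin2 probe set 1421341_at it was -0.40 in LSK and 0.28 in MP, a gap of -0.68. Wls on 1437434_a_at differed by -0.42 in LSK and 0.48 in MP, a gap of -0.89, and its other tested probe sets had gaps of -1.06 and -0.79. Daam1 on 1431035_at differed by 0.31 in LSK and -1.18 in MP, a gap of 1.49, while its brighter probe set differed by -0.10 in LSK and -0.69 in MP. Nfatc2, a calcium-regulated transcription factor, differed on 1439205_at by 0.74 in LSK and -0.22 in MP, a gap of 0.95, and its other tested probe sets differed by -0.10 and -0.20 in LSK. Lgr4, a receptor for the R-spondins, differed by 0.44 in LSK and -0.37 in MP, a gap of 0.81, and was picked out after its values were seen.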

How the results depend on the processing

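The test of Fzd7 on 1450044_at kept its direction and its side of the threshold under quantile normalization, median centring, no filter, the looser filter, an offset of 32 and no trend, with limma adjusted p from 0.00283 to 0.0100, and lost the call with no replicate block (0.0794). With each pool left out in turn its LSK minus MP ran from -1.12 to -0.72. Without the block 0 of the 9 member probe sets rose and 0 fell by limma (1 and 1 at an unadjusted p under 0.05). Without the trend 0 rose (1 unadjusted). With no filter all 24 member probe sets were tested. Of these 3 rose, a dim pair of Tcf7l2 and a dim one of Fzd4, and 1 fell, that of Fzd7. In that fit 12.2% of all probe sets passed. After quantile normalization the LSK minus MP value of Sfrp1 on 1438620_x_at, not called, changed sign to -0.014, as did 2 Ctnnb1 genotype differences in MP, to 0.034 and 0.0059. In the whole table the fit without the block called 918 probe sets higher and 140 lower in LSK, against 3395 and 1618 with it, and quantile normalization called 2562 lower; the share of calls higher in LSK was 67.7% on the deposited values, 53.8% after quantile normalization and 86.8% without the block. The 2-fold counts of Smo-deficient against WT, 134 higher and 51 lower in LSK and 63 higher and 81 lower in MP, became 689, 199, 530 and 593 at 1.5-fold. With no filter the 134 became 221, and with the offset the 63 became 41. Counts of calls cannot be had from 1 pool alone. The causes were not tested. For the 4 members with dim probe sets only, low signal limits what can be seen.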

Other observations

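The planar polarity and calcium branch of Wnt signalling was also read, as a list of 16 genes, 14 of them tested. In LSK against MP 5 passed in limma, 4 rising and 1 falling, where 16.4% of all tested genes rose and 7.54% fell. Daam1, a formin that links Dishevelled to the small GTPase RhoA, had log2 signals of 9.29 in Smo-deficient LSK and 9.39 in WT LSK, against 10.35 in Smo-deficient MP and 11.04 in WT MP. Both LSK arrays lay below both MP arrays, and LSK minus MP was -1.35 ± 0.16 (SE, limma adjusted p = 0.00228). Its second tested probe set gave -0.88 (limma adjusted p = 0.09), with -0.13 in the Smo-deficient pool and -1.62 in the WT pool. The calcium-regulated factor Nfatc1 rose by 1.13 ± 0.11, and its other tested probe sets gave 0.42, 0.20 and 0.04. Nfatc2 rose by 2.25 ± 0.22 on 1439205_at, while its other tested probe sets gave 0.06 and -0.07. The calcium-dependent kinase gene Camk2g rose by 0.90 ± 0.11 on 1 probe set and differed by 0.01 on another. The calcineurin subunit gene Ppp3ca rose by 0.47, a call lost without the block (limma adjusted p = 0.162).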
